A study of Homo sapiens with 18 samples.

Results

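PC3 and 22RV1 are human prostate cancer cell lines that grow without testicular androgen, and their untreated states were set side by side here. The comparison used the 3 PC3 control libraries and the 3 22RV1 control libraries (A, B and C in each line), which are 6 of the 18 libraries of the series. All 6 came from cells kept for 24 h with DMSO, the vehicle of canagliflozin, without drug or radiation. The other libraries were kept for 24 h with 10 µM canagliflozin (both lines), given 5 Gy of radiation (22RV1) or both (22RV1). Each group is 1 cell line, so a difference is between PC3 and 22RV1 and not between kinds of tumour. The labels call the PC3 cells mCRPC, metastatic castration-resistant prostate cancer, and the 22RV1 cells CRPC.

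PC3 values were normalized reads, that is reads per gene divided by a size factor of the library, and 22RV1 values were rlog values, a log2 scale on which differences between libraries are drawn together. Since the tables were normalized separately, each library was converted to percentiles over the 14873 genes that have a value in both lines, so that 0 is the lowest and 100 the highest rank. A gene was called far apart where all 3 libraries of one line lay above all 3 of the other and the mean percentiles differed by at least 25 points. No p-value is given, because line, table and sequencing run cannot be told apart and the sources call the libraries of a group 3 replicates without saying, for the RNA, whether they came from separate cultures. Percentiles rank reads and not reads per base, so the far-apart call compares a gene between lines and not with other genes. Where a rank within a line is given, it is not corrected for transcript length. A value after ± is an SD, for a difference that of both lines combined.

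Recovered whole reads put the depth of the PC3 control libraries at 18.4, 20.1 and 28.3 M reads for A, B and C, and 1 read was worth 1.14, 1.05 and 0.736 normalized reads. The depth of the 22RV1 libraries is unknown, since rlog values hold no counts. The SD of a gene's percentile over 3 libraries had a median of 0.935 points in PC3 and 0.397 points in 22RV1, so 25 points lie far beyond the spread, although the rlog step makes the 22RV1 spread too small. Every gene of the PC3 table had at least 1 read in each of its 6 libraries, so genes with no reads in any 1 PC3 library have no PC3 value here. This touches 6094 genes of 22RV1, of which 298 reached a mean rlog of 7, against 219 genes with a PC3 value alone, of which 24 had a mean of at least 128 normalized reads (log2 of 7).

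Luminal cells of the prostate answer to androgen with secretory genes such as KLK3, which encodes prostate-specific antigen, and keep lineage factors such as HOXB13 and FOXA1. Cancer cells that lose this program often carry mesenchymal genes (vimentin, N-cadherin, the receptor AXL) or secrete inflammatory cytokines under the transcription factor NF-kB.

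The promoters of 3 genes that mark these states are shown because they hold letters of an androgen response element or an NF-kB site. Each is the 250 bases before the RefSeq start in GRCh38.p14, plus strand, 5′ to 3′. Capitals mark AGAACA or its reverse complement TGTTCT, the core hexamer of androgen response elements, in KLK3, and GGANTTTCC or its reverse complement GGAAANTCC, a common NF-kB motif, in IL6 and CXCL8. Both strands were searched.
KLK3 (chr19:50854665-50854914): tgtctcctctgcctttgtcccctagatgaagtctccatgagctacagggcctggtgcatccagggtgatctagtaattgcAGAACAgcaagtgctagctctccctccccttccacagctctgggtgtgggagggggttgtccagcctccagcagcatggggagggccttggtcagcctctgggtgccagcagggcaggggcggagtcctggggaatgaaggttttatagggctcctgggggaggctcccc
IL6 (chr7:22726950-22727199): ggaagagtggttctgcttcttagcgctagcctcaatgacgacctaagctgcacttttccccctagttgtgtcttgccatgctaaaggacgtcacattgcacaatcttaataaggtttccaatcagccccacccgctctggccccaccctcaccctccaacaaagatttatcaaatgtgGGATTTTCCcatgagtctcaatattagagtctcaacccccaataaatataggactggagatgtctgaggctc
CXCL8 (chr4:73740319-73740568): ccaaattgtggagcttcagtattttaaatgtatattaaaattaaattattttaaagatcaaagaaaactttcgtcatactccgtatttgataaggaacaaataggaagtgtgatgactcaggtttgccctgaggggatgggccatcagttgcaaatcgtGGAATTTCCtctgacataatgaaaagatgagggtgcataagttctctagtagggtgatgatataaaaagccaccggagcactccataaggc
The hexamer began 170 bases before the start of KLK3. The NF-kB letters began 72 bases before the start of IL6 and 91 bases before that of CXCL8. Over all 35116 RefSeq promoters of 300 bases (250 before to 50 after the start), 14.8% held the hexamer and 1.64% the NF-kB letters. CXCL1 and CXCL5 also held the NF-kB letters, IL1B and PLAU did not, and CAV1 held the hexamer in 2 of 3 listed promoters. A match describes the sequence and shows no binding.

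The ranks of the shared genes were correlated between the lines. The Spearman correlation across the shared genes, which are not independent replicates, was 0.799 to 0.800 over the 9 pairs of a PC3 and a 22RV1 library, 0.998 between PC3 libraries and 0.999 to 1.00 between 22RV1 libraries. The mean percentiles of 5136 genes (34.5%) lay within 5 points of each other, and those of 8576 genes (57.7%) within 10 points. For 89.8% of the shared genes all 3 libraries of one line lay above all 3 of the other, most often by less than 25 points. In PC3 1048 genes (7.05%) were far apart and higher, and 808 (5.43%) far apart and lower, and these shares are the background for the lists below. At 50 points 287 genes (1.93%) were higher and 127 (0.854%) lower in PC3. At the edge, DLGAP1-AS2 was 25.01 points higher in PC3, just inside, and MRTFA 24.97 points higher, just outside. On the other side NBEAL2 differed by -25.01 points and PPARGC1B by -24.997 points. The median difference over all shared genes was -1.17 points.

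**Figure D1:**
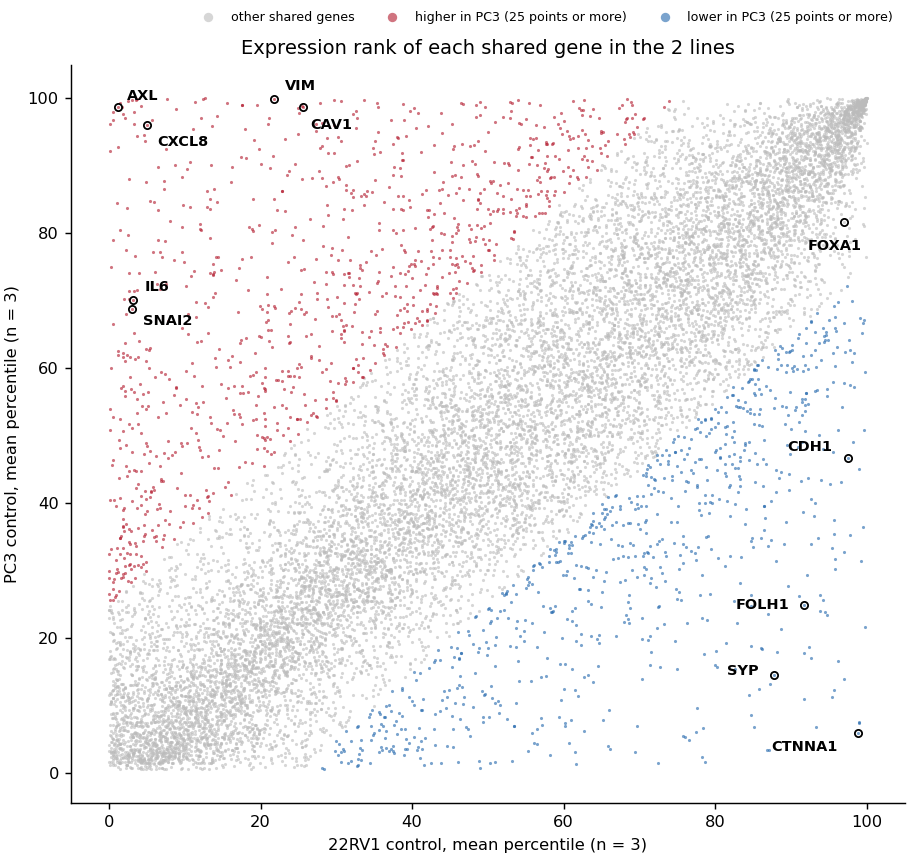
Mean percentile of each of the 14873 shared genes in PC3 control (vertical) and 22RV1 control (horizontal), both without units and over 3 libraries, with genes far apart in colour and 11 genes named. The 1048 genes higher in PC3 fill the upper left, with AXL and CXCL8 near the corner, and the 808 lower genes the lower right, with CTNNA1 near the corner.

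Among protein coding genes the 15 largest differences upward in PC3 were those of PI3, AXL, PXDN, CXCL1, IL1B, CXCL5, PLAU, IGFBP4, CXCL6, ETS1, CDH11, SERPINB7, APOBEC3C, SRGN and FAM20C. They ran from 92.9 points for FAM20C, a secreted-pathway kinase, to 97.8 points for PI3, the elastase inhibitor elafin. PI3 had 17224, 17134 and 15322 normalized reads in PC3, against rlog values of -1.73, -1.73 and -1.73 in 22RV1, close to the lowest value of that table. PXDN, a peroxidase that cross-links collagen IV, had 9394, 9456 and 8937 normalized reads in PC3, against rlog values of -2.21, -2.21 and -2.21 in 22RV1. IGFBP4, a binding protein of insulin-like growth factors, had 32324, 33464 and 32813 normalized reads in PC3, against rlog values of -0.13, -0.07 and -0.11 in 22RV1. All of these 15 genes stood in the top 4 percentiles of PC3 and the bottom 5 of 22RV1.

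Downward in PC3 the 15 largest differences included those of CTNNA1, SEMA6A, AFF3, IGFBP2, ATP6V0A1, PGAM2, ATOH8, UNC13A, CLMN, METTL7A, BEX1, VGF, KCNH2 and NELL2. CTNNA1 encodes alpha-catenin, which ties cadherins to actin. It had 5.70, 4.19 and 5.89 normalized reads in PC3, that is a handful of reads per library, against rlog values of 13.50, 13.48 and 13.45 in 22RV1, a difference of -93.0 ± 1.09 points. SEMA6A, a transmembrane semaphorin, had 4.56, 9.43 and 6.62 normalized reads in PC3, against rlog values of 13.49, 13.56 and 13.49 in 22RV1. IGFBP2, another binding protein of insulin-like growth factors, had 17.1, 7.33 and 10.3 normalized reads in PC3, against rlog values of 12.27, 12.31 and 12.37 in 22RV1, so that IGFBP4 and IGFBP2 differed in opposite directions. UNC13A and VGF, which serve regulated secretion in neurons, differed by -83.1 and -78.1 points, and VGF stood at percentile 21.7 in PC3 and 99.7 in 22RV1. That the libraries of the lines did not overlap for these genes is part of the rule that picked them, and it held for 89.8% of all shared genes.

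Androgen-responsive genes were lower in PC3 more often than higher. Of the 34 listed genes that have a value in both lines, 7 were lower in PC3, 2 were higher and 25 were not far apart, with a median of -5.88 points. The share of lower genes was 20.6%, against 5.43% of all shared genes, and that of higher genes 5.88%, against 7.05%. In an alternative chosen after seeing the data, genes with no PC3 value were placed at the bottom of the PC3 ranking. There 3 of the 34 were lower. That count leaves out the 8 listed genes with no PC3 value, which this alternative ranks too, so it does not describe the whole list.

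FOLH1 (chr11:49145092-49208638, hg38), which encodes the prostate-specific membrane antigen used for imaging, had 67.3, 70.2 and 61.1 normalized reads in PC3, against rlog values of 11.80, 11.69 and 11.72 in 22RV1. That is percentile 24.8 in PC3 and 91.7 in 22RV1, a difference of -66.9 ± 0.708 points, or -5.60 on a log2 scale centred on each library's median. FKBP5, an immunophilin of steroid receptor complexes, stood at 64.1 in PC3 and 97.7 in 22RV1, so it kept a moderate rank in PC3. ZBTB10 (-32.8 points), C1orf116 (-31.4 points) and ACP3 (-26.6 points), the last encoding prostatic acid phosphatase, were lower too. NDRG1, a gene of differentiation and stress, was higher in PC3 by 35.1 points and the drug transporter ABCC4 by 34.8 points. Among targets that were not far apart, TMPRSS2 stood at percentile 39.0 in PC3 and 49.7 in 22RV1, and the prostein gene SLC45A3 at 51.9 in PC3 and 30.3 in 22RV1. These 2 were named after their values were seen.

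The kallikrein proteases had no PC3 value. KLK3 (chr19:50854915-50860764) had rlog values of 7.53, 7.69 and 7.61 in 22RV1, KLK2 of 8.58, 8.69 and 8.57 and KLK4 of 12.17, 12.17 and 12.08. KLK4 was thus at percentile 96.1 of all 20967 genes of the 22RV1 table, KLK2 at 60.2 and KLK3 at 52.7. The kallikreins thus had clear values in each 22RV1 library, which no PC3 library could be set against. In all, 8 of the 42 listed genes with any value had none in PC3, the others being KLKP1, TMEFF2, MAF, ADAM7 and NPY. In 22RV1 cells irradiated with 5 Gy, KLK3 had rlog values of 6.69, 6.68 and 6.80, all under those of 22RV1 control.

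Lineage transcription factors were split. Of 24 shared genes 6 (25%) were lower in PC3 and 2 (8.33%) higher, with a median of -12.5 points. The lower ones included GRHL2 (-62.0 points) and GATA2 (-44.9 points), an epithelial factor and a zinc finger factor of the luminal lineage, CREB3L4 (-43.9 points) and ONECUT2 (-43.8 points). SIM2, with 7853, 7544 and 8001 normalized reads in PC3 and rlog values of 8.87, 8.90 and 8.93 in 22RV1, and TLE1, a corepressor, were higher by 48.8 and 41.9 points. HOXB13 and FOXA1, the factors most bound up with prostate identity and named after their values were seen, were not far apart. HOXB13 stood at percentile 90.6 in PC3 and 93.7 in 22RV1, and FOXA1 at 81.6 in PC3 and 96.9 in 22RV1. Both factors therefore ranked above the 80th percentile in both lines. HNF4A and SOX2 had no PC3 value and stood at an rlog of 1.58 and 5.52 in 22RV1.

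**Figure D2:**
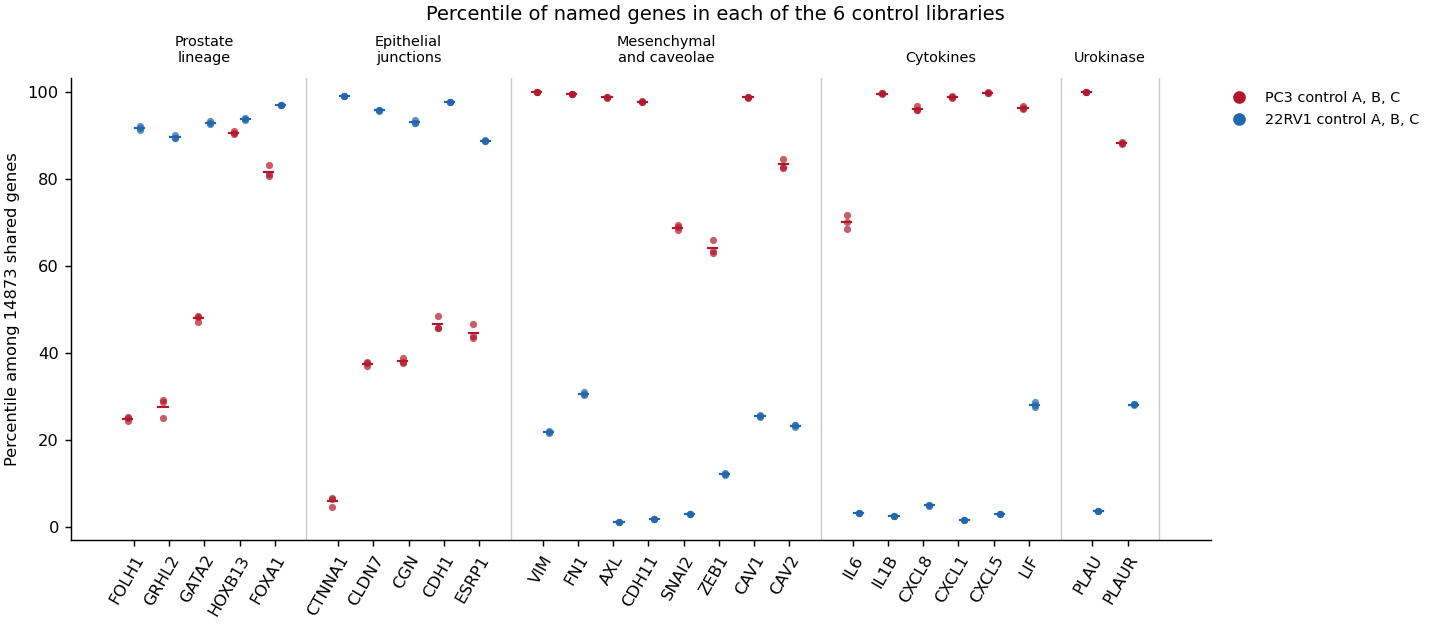
Percentile among the 14873 shared genes (vertical, no unit) of 26 named genes (horizontal), with 1 point per control library, PC3 to the left of 22RV1 for each gene, and a bar at the mean of 3. In 24 of the genes the lines lie at least 25 points apart, with FOLH1 at 24.8 in PC3 and 91.7 in 22RV1, while HOXB13 and FOXA1 do not.

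Luminal secretory genes went both ways, with 4 of 16 (25%) higher in PC3 and 4 (25%) lower. AZGP1, a secreted glycoprotein of prostatic fluid, had 6.84, 9.43 and 2.21 normalized reads in PC3, against rlog values of 10.75, 10.69 and 10.59 in 22RV1. ALDH1A3, which makes retinoic acid, had 58766, 60067 and 57964 normalized reads in PC3, against rlog values of 2.03, 2.04 and 2.00 in 22RV1. TFF1 and CD24 were higher in PC3 by 54.5 and 30.2 points. The simple epithelial keratins KRT8 (percentile 89.8 in PC3 and 99.6 in 22RV1) and KRT18 (90.2 in PC3 and 98.4 in 22RV1), named after their values were seen, ranked high in both lines.

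Of 21 basal genes 9 (42.9%) were higher in PC3 and 1 (4.76%) was lower, with a median of 17.9 points. The higher ones included laminin chains and laminin-binding integrins, LAMA3 (73.6 points), LAMB3 (52.4), ITGA6 (66.2), ITGB4 (73.0) and ITGA3 (37.0), with JAG1 (71.6), EGFR (45.04) and S100A2 (52.2). LAMA3 had 11481, 11611 and 11454 normalized reads in PC3, against rlog values of 6.20, 6.16 and 6.20 in 22RV1. The cadherin CDH3 was lower by 25.9 points on the same scale, at percentile 47.1 in PC3 and 73.0 in 22RV1. The defining basal keratins KRT5 and KRT14 had no PC3 value and stood at an rlog of -2.21 and -2.21 in 22RV1, the lowest value of that table to 2 decimals.

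Epithelial junction and splicing genes were lower in PC3. Of 40 shared genes 15 (37.5%) were lower, 1 (2.50%) was higher and 24 were not far apart, with a median of -12.2 points. CDH1, which encodes E-cadherin, had 457, 396 and 394 normalized reads in PC3, against rlog values of 12.87, 12.90 and 12.86 in 22RV1, or percentile 46.6 in PC3 and 97.6 in 22RV1. Its partner CTNNA1 stood at percentile 5.91 in PC3 and 98.9 in 22RV1. The tight junction genes CLDN7 (-58.2 points), CGN (-55.0), TJP3 (-51.5), CRB3 (-39.7), CLDN3 (-37.4) and MARVELD3 (-35.0) and the sorting adaptor AP1M2 (-67.5) were lower. The epithelial splicing regulators ESRP1 and ESRP2 differed by -44.0 and -28.4 points. The exception was PKP1, a desmosomal plakophilin, with 14695, 14635 and 13393 normalized reads in PC3, against rlog values of 4.65, 4.70 and 4.64 in 22RV1. EPCAM, named after its values were seen, stood at percentile 72.5 in PC3 and 68.6 in 22RV1.

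The list with the most one-sided difference was that of mesenchymal and migratory genes. Of 46 shared genes 32 (69.6%, against 7.05% of all shared genes) were higher in PC3, 0 were lower and 14 were not far apart, and the median was 51.1 points. AXL (chr19:41219223-41261766), a receptor tyrosine kinase, had 12266, 12567 and 11473 normalized reads in PC3, against rlog values of -1.73, -1.73 and -1.73 in 22RV1, a difference of 97.5 ± 0.0826 points. CDH11, a mesenchymal cadherin, had 8965, 8592 and 8684 normalized reads in PC3, against rlog values of -1.49, -1.49 and -1.48 in 22RV1. COL6A2, a chain of collagen VI, had 60859, 60146 and 55503 normalized reads in PC3, against rlog values of 3.47, 3.52 and 3.43 in 22RV1. TGM2, a transglutaminase that cross-links matrix proteins, differed by 88.2 points. All 4 ranked in the top 3 percentiles of PC3 and under the 13th of 22RV1.

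Other members, named after their values were seen, covered several roles. The filament gene VIM had 36887, 37116 and 35718 normalized reads in PC3, against rlog values of 5.59, 5.52 and 5.62 in 22RV1. Fibronectin (FN1, 68.9 points), the collagenase MMP14 (79.4), the AP-1 subunit FOSL1 (83.6) and N-cadherin (CDH2, 61.5) were higher too. Among transcription factors of epithelial-mesenchymal transition, SNAI2 stood at percentile 68.8 in PC3 and 3.02 in 22RV1, and ZEB1 at 64.0 in PC3 and 12.2 in 22RV1. ZEB2 fell just short of the 25 points, at 27.7 in PC3 and 3.23 in 22RV1. PRRX1 (rlog 7.23 in 22RV1) and MMP2 had no PC3 value, so not every gene of the list was higher in PC3.

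Caveolae are small pits of the plasma membrane built from caveolins and cavins. Of 11 shared genes 5 (45.5%) were higher in PC3 and 0 lower. CAV1 (chr7:116524994-116561179) had 11855, 11644 and 12272 normalized reads in PC3, against rlog values of 6.27, 6.32 and 6.26 in 22RV1. That is percentile 98.7 in PC3 and 25.6 in 22RV1, a difference of 73.1 ± 0.198 points, or 7.32 on the log2 scale centred on each library's median. CAV2, the partner caveolin, differed by 60.1 points, the membrane-shaping ATPases EHD1 and EHD4 by 38.0 and 29.1 points, and ROR1 by 27.5 points. CAVIN1, the coat protein that caveolae need, had no PC3 value, against rlog values of 6.93, 6.92 and 7.06 in 22RV1. PC3 therefore had a caveolin at percentile 98.7 and no value for the main cavin.

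Cytokines and chemokines were higher in PC3 in 14 of 28 shared genes (50%) and lower in 2 (7.14%), with a median of 24.2 points. IL6 (chr7:22725884-22732002), an inflammatory cytokine, had 1084, 1243 and 1159.8 normalized reads in PC3, against rlog values of -0.39, -0.37 and -0.36 in 22RV1. That is percentile 70.1 in PC3 and 3.21 in 22RV1, a difference of 66.9 ± 1.60 points. IL1B, which encodes interleukin-1 beta, had 23319, 23525 and 23458 normalized reads in PC3, against rlog values of -0.95, -0.95 and -0.96 in 22RV1. For both cytokines 22RV1 stayed near its lowest values. Where both lines had to pass a filter on low values, 11 of the 28 genes were left, with 3 higher in PC3 and 2 lower.

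Neutrophil-attracting chemokines of 1 gene cluster on chromosome 4 were higher in PC3, where CXCL5, CXCL1, CXCL6 and CXCL8 stood above the 96th percentile. CXCL5 had 32052, 32711 and 37942 normalized reads in PC3, against rlog values of -0.48, -0.47 and -0.47 in 22RV1. CXCL1 had 11540.2, 12189.6 and 13282 normalized reads in PC3, against rlog values of -1.49, -1.49 and -1.49 in 22RV1. CXCL8, the gene whose promoter is shown above, had 5846, 5863 and 6781 normalized reads in PC3, against rlog values of 0.72, 0.76 and 0.80 in 22RV1. CXCL6, CXCL3 and CXCL2 followed with differences of 96.2, 79.3 and 59.6 points. No library of 22RV1 reached percentile 6 for any of these 6 genes.

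LIF (68.2 points), IL33 (71.4), CSF3 (66.0), IL18 (57.3), IL32 (50.9) and IL11 (25.1) were higher as well. The 2 lower genes were CXCL16 (-25.7 points) and TNFSF15 (-25.2 points), both close to the threshold. IL24, CSF2, CCL20, CCL26, IL1A and IL20 had a PC3 value alone, with CSF2 at 294 ± 16.2 normalized reads in PC3 (SD, n = 3). In the other direction the membrane-bound chemokine CX3CL1 had no PC3 value and rlog values of 8.38, 8.60 and 8.37 in 22RV1.

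Of 24 NF-kB subunits and feedback targets 10 (41.7%) were higher in PC3 and 0 lower, with a median of 18.4 points. PLAU, the urokinase protease, differed by 96.2 points, the adhesion molecule ICAM1 by 62.5, the ubiquitin ligase BIRC3 by 47.8 and the kinase IKBKE by 46.7. The inhibitors TNFAIP3 and NFKBIA, which the pathway induces to switch itself off, differed by 46.4 and 31.7 points. The subunits RELA (percentile 85.1 in PC3 and 76.3 in 22RV1) and NFKB1 (73.7 in PC3 and 59.2 in 22RV1), named after their values were seen, were not far apart.

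Plasminogen activation, a list that also holds PLAU, showed the same direction, with 12 of 26 shared genes (46.2%) higher in PC3 and 2 (7.69%) lower. PLAU had 57585, 60459.8 and 58741 normalized reads in PC3, against rlog values of -0.03, -0.0017 and -0.04 in 22RV1. Its receptor PLAUR had 2831, 2797 and 2757 normalized reads in PC3, against rlog values of 6.71, 6.70 and 6.73 in 22RV1. Protease and receptor were thus higher together. SERPINB7 (95.0 points), TFPI2 (75.9) and the plasminogen-binding annexin ANXA2 (70.03) were higher too, while the membrane protease ST14 (-37.1) and the coagulation inhibitor TFPI (-29.7) were lower. SERPINB2 had a PC3 value alone, 570.2 ± 44.6 normalized reads (SD, n = 3).

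Of 28 integrin and laminin genes 10 (35.7%) were higher in PC3 and ITGB5 alone (3.57%) was lower, by 26.3 points. ITGA6 had 5989, 5797 and 6216 normalized reads in PC3, against rlog values of 6.96, 6.95 and 6.95 in 22RV1. ITGB2, a chain of leukocyte integrins named after its values were seen, stood at percentile 68.0 in PC3 and 10.5 in 22RV1. Of 24 S100, annexin and galectin genes 9 (37.5%) were higher and 0 lower. S100A16 had 6938, 7003 and 6860.5 normalized reads in PC3, against rlog values of 1.17, 1.16 and 1.14 in 22RV1, and the galectin gene LGALS3 and the annexin gene ANXA3 differed by 82.6 and 72.7 points.

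Growth factor receptors and ligands differed in sets. Of 34 shared genes 13 (38.2%) were higher in PC3 and 3 (8.82%) lower. AXL and its ligand GAS6 (42.9 points), EGFR and its ligands TGFA (57.7), HBEGF (42.9) and AREG (32.9), and MET (36.0) were higher. ERBB3 (-52.4 points), FGFR3 (-68.1) and HGF (-67.3), the ligand of MET, were lower. FGFR3 had 10.3, 8.38 and 8.10 normalized reads in PC3, against rlog values of 10.65, 10.65 and 10.63 in 22RV1. HGF had 15.96, 22.0 and 19.1 normalized reads in PC3, against rlog values of 10.94, 10.89 and 10.99 in 22RV1, so that MET and its ligand differed in opposite directions. Ephrin receptors and ligands, which signal at cell contacts, had 3 of 19 (15.8%) higher and 5 (26.3%) lower, with EPHA2 higher by 42.0 points and EPHA3 and EPHA6 at -51.3 and -48.4.

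In the Wnt pathway 8 of 36 shared genes (22.2%) were higher in PC3 and 6 (16.7%) lower. FZD5, a Wnt receptor, had 215, 226 and 220.0 normalized reads in PC3, against rlog values of 14.10, 14.13 and 14.06 in 22RV1. The receptor FZD8 was higher in PC3 by 49.0 points. The secreted antagonist DKK1 had 26666, 26430.3 and 29012 normalized reads in PC3, against rlog values of 7.42, 7.52 and 7.50 in 22RV1, and the ligand WNT7A differed by 45.3 points. Receptors of the pathway thus differed in both directions.

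Of 41 tumour suppressors and cell cycle brakes 4 (9.76%) were higher and 4 (9.76%) lower. CDKN1B (-43.7 points) and CDKN1A (-34.8 points) were lower beside CTNNA1, and TGFBR2 (67.8) and SMAD3 (53.7), of the TGF-beta pathway, were higher.

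Neuroendocrine genes, which mark a transition of treated prostate cancer toward neuron-like cells, were mostly without a PC3 value. Only 6 of 22 listed genes with any value were shared, and 16 had a 22RV1 value alone. SYP, a synaptic vesicle protein, had 22.8, 19.9 and 10.3 normalized reads in PC3, against rlog values of 11.35, 11.39 and 11.27 in 22RV1. FOXA2 went the other way, with 1352, 1391 and 1357 normalized reads in PC3, against rlog values of 0.25, 0.26 and 0.26 in 22RV1. Among genes with no PC3 value, SRRM4, a neural splicing factor, had rlog values of 11.82, 11.89 and 11.84 in 22RV1, SYT4 of 11.28, 11.22 and 11.40 and SCG3 of 10.73, 10.64 and 10.71. CHGB (9.53 ± 0.07) and SNAP25 (9.42 ± 0.01) followed (SD, n = 3). The factors INSM1 and NEUROD1, which act in neuroendocrine differentiation, had no PC3 value and rlog values of -0.48 and -1.97 in 22RV1. 22RV1 thus carried secretory granule and synaptic genes with these factors near the lowest values of the table.

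Of 36 interferon-stimulated genes 11 (30.6%) were higher in PC3 and 0 lower, with a median of 17.05 points. IFI6 had 1348, 1438 and 1258 normalized reads in PC3, against rlog values of 3.03, 3.02 and 3.08 in 22RV1. SAMD9 (55.9 points), OAS2 (48.0) and SAMD9L (42.4) followed. Of 13 genes listed with class I antigen presentation 5 (38.5%) were higher and 0 lower. The higher ones were ERAP2 (46.3 points), B2M (35.5), ERAP1 (31.0), CD274 (27.4) and IRF1 (25.3). CD274 encodes the immune checkpoint ligand PD-L1 and IRF1 a transcription factor, so neither belongs to the presentation machinery itself. With genes that have no PC3 value at the bottom of the PC3 ranking 2 of the 13 were higher, at 50 points 0 were, and with log2 values 6 were higher and 2 lower. Genes inside the major histocompatibility region had unusually low values. Of 66 protein coding genes of 22RV1 that start between 28 and 34 Mb of chromosome 6, 35 (53.03%) had a mean rlog under 0, against 11.8% of 16482 genes elsewhere. Of these 66 genes 20 (30.3%) had a PC3 value, against 79.4% elsewhere. Even the tubulin gene TUBB had an rlog of 1.35. No gene of this region is therefore read further, and the cause was not tested.

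Several lists had few or no genes far apart. None of 19 reference genes was far apart, with a median of -0.191 points. ACTB stood at percentile 99.96 in PC3 and 99.87 in 22RV1, GAPDH at 99.92 in PC3 and 99.95 in 22RV1, and TBP at 40.7 in PC3 and 47.8 in 22RV1. None of 13 genes of mitochondrial DNA was far apart, and of 35 complex I subunits NDUFB1 was, at -25.7 points. The complex I count depended on the setting: 5 of 35 were lower with the filter in both lines or with protein coding genes alone, and 0 without PC3 replicate A or without 22RV1 replicate A. Its median was -7.20 points, below that of all shared genes (-1.17). Of 34 proliferation genes E2F2 alone was far apart (-46.9 points), and MKI67 stood at percentile 98.3 in PC3 and 99.3 in 22RV1. Of 29 HOX genes HOXA11 was higher in PC3 by 38.8 points and HOXC10 lower, at -38.3.

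Of 10 genes of the SLC2A and SLC5A transporter families SLC5A3 (27.9 points), which carries myo-inositol, and SLC2A6 (27.7) were higher in PC3 and SLC2A12 (-67.4) lower. SLC2A12 had 46.7, 35.6 and 44.2 normalized reads in PC3, against rlog values of 11.47, 11.37 and 11.45 in 22RV1. SLC2A1, the main carrier of glucose, stood at percentile 90.9 in PC3 and 77.5 in 22RV1 and was named after its values were seen. SLC5A2, which encodes the SGLT2 transporter that canagliflozin blocks, had no PC3 value and rlog values of 3.48, 3.55 and 3.48 in 22RV1. Of 22 genes of steroid metabolism 3 were lower in PC3 (HSD17B11, HSD11B2 and HSD3B7) and HSD17B2, which inactivates androgen, was higher, with 121, 115 and 126 normalized reads in PC3, against rlog values of -2.21, -2.21 and -2.21 in 22RV1.

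Of 20 ETS factors 4 (20%) were higher in PC3 and ELF3 (5.00%) was lower, at -36.6 points. ETS1 had 6328, 6320.0 and 6092 normalized reads in PC3, against rlog values of -2.21, -2.21 and -2.21 in 22RV1, and FLI1 had a PC3 value alone, 196 ± 13.1 normalized reads (SD, n = 3). In the other direction 6 listed ETS genes had a 22RV1 value alone. Their mean rlog ran from -2.21 for ERG to 9.16 for ELF5. Of 25 NRF2 targets 3 (12.0%) were higher, among them ABCC3 (65.9 points) and NQO1 (30.0). Of 20 zinc and metallothionein genes 3 (15%) were higher, MT1X (37.2 points), MT2A (30.6) and SLC39A4 (25.3), and 0 were lower. A further 6 listed genes had no PC3 value. Among them was the metallothionein gene MT1E, with rlog values of 8.73, 8.44 and 8.48 in 22RV1, so not every metallothionein was higher in PC3.

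Markers of fibroblasts, muscle, endothelium and immune cells were read because PC3 carries mesenchymal genes. Of 17 shared genes 5 (29.4%) were higher in PC3 and 0 lower: CD68 (42.3 points), COL1A1 (33.4), PECAM1 (31.5), ENG (29.9) and KDR (27.7). Their mean levels in PC3 lay between 100.3 normalized reads for KDR and 1332 for COL1A1. Among protein coding genes alone 2 of these 17 were far apart and higher, and with log2 values 10 were. Their part in the mesenchymal list was not tested. PTPRC, the pan-leukocyte marker, had 6.13 normalized reads in PC3 and an rlog of 0.87 in 22RV1, and THY1, DES, MYH11, VWF, CD4, LYZ and COL3A1 had no PC3 value.

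**Figure D3:**
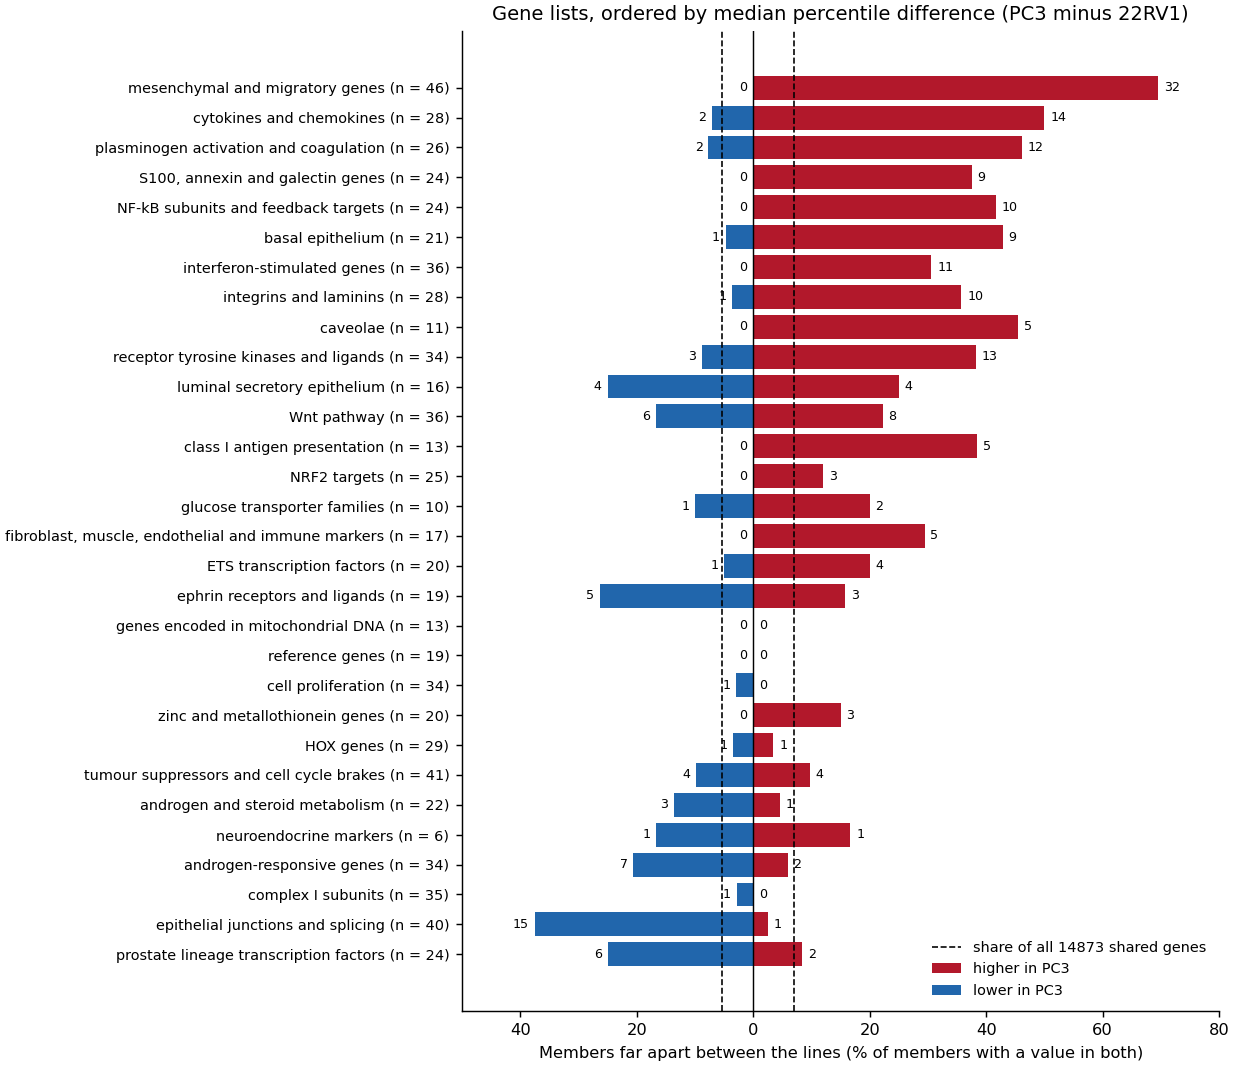
Share of the members of each of 30 gene lists that were far apart (horizontal, % of members with a value in both lines, higher in PC3 to the right, lower to the left), with the number of genes at each bar and the share over all shared genes as dashed lines. Mesenchymal genes reach 69.6% to the right and epithelial junction genes 37.5% to the left, while reference and mitochondrial genes show none.

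Some differences ran along the genome. Of 10327 protein coding genes that reached a mean rlog of 7 in 22RV1, 544 (5.27%) had no PC3 value or fewer than 25 normalized reads, and in 6 places at least 3 such genes stood in a row among the expressed ones. The longest held 7 genes on chromosome 17, KAT2A, RAB5C, GHDC, STAT5B, STAT5A, STAT3 and ATP6V0A1 (chr17:42113111-42522582, hg38). STAT3, the factor that relays IL6 signals, had rlog values of 10.55, 10.61 and 10.56 in 22RV1 and no PC3 value. RAB5C, a GTPase of early endosomes, had rlog values of 11.68, 11.71 and 11.64 in 22RV1 and no PC3 value. ATP6V0A1, a subunit of the vacuolar proton pump, had 4.56, 3.14 and 2.21 normalized reads in PC3, against rlog values of 11.28, 11.29 and 11.27 in 22RV1.

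Counting weak genes too, all 11 protein coding genes from DHX58 to CAVIN1 (chr17:42101404-42423256, 322 kb) had no PC3 value, so the absent values of CAVIN1 and STAT3 belong to the same stretch. Genes on either side had reads in PC3: NKIRAS2 had 594 and DNAJC7 1855 normalized reads on one side, and NAGLU 130.3 and COASY 1800.1 on the other. The files hold no DNA measurement, and the state of this locus was not tested.

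**Figure D4:**
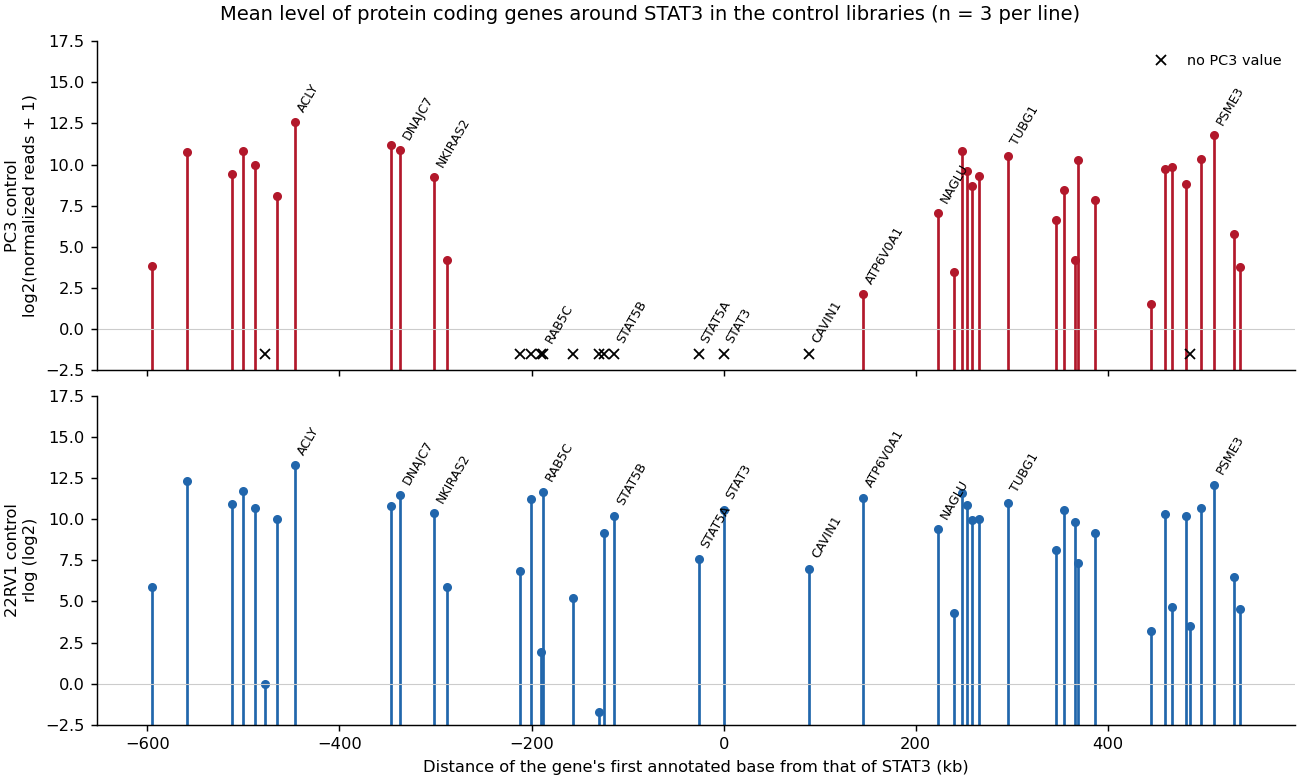
Mean level over 3 control libraries of protein coding genes around STAT3, as log2(normalized reads + 1) in PC3 (upper panel) and rlog in 22RV1 (lower panel), by distance of the gene's first annotated base from that of STAT3 in kb. Crosses mark genes with no PC3 value, and 11 of them in a row cover STAT3 while 22RV1 has values there and both lines have values on either side.

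The other low stretches of PC3 held the kallikreins KLK1, KLK15, KLK3, KLK2 and KLK4 (chr19:50819146-50911395), IRX3, IRX5 and LPCAT2 on chromosome 16 (chr16:54283304-55586666), the globin genes HBA2, HBA1 and HBQ1 (chr16:172876-181179), ZMAT1, BEX5 and NXF2B on X (chrX:101882288-102440008) and 6 genes from MAGEA4 to MAGEA6 on X (chrX:151912495-152769716). IRX3, a homeobox factor, had rlog values of 12.26, 12.28 and 12.29 in 22RV1 and no PC3 value. MAGEA4, a cancer-testis antigen, had rlog values of 12.67, 12.67 and 12.65 in 22RV1 and no PC3 value. MAGEA and globin genes have near-identical copies, and reads of 50 bases can be split among them, so their single values are uncertain. CTNNA1 (chr5:138610967-138935034) was in no such stretch: its neighbours HSPA9 and SIL1 had 9426 and 123 normalized reads in PC3. Nearby, however, EGR1, an immediate early transcription factor a few genes before it, had 2.28, 4.19 and 1.47 normalized reads in PC3, against rlog values of 9.47, 9.64 and 9.49 in 22RV1. LRRTM2, which lies inside the span of CTNNA1, had no PC3 value and an rlog of -1.97 in 22RV1.

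The reverse rule, at least 128 normalized reads in PC3 and an rlog under log2 of 25 or no value in 22RV1, took 400 of 10063 genes (3.97%) and 10 stretches. The longest held the 6 chemokines CXCL8, CXCL6, CXCL1, CXCL5, CXCL3 and CXCL2 (chr4:73740519-74099196). Stretches of 5 genes held EPB41L3, TMEM200C, L3MBTL4, ARHGAP28 and PTPRM on chromosome 18 (chr18:5392381-8406861) and the keratins KRT86, KRT81, KRT83, KRT85 and KRT75 (chr12:52249300-52434371), which resemble each other in sequence. KRT81 had 76825, 78839.5 and 71746 normalized reads in PC3, against rlog values of 3.52, 3.55 and 3.56 in 22RV1. IFIT2, IFIT3 and IFIT1 and S100A4, S100A2 and S100A16 formed stretches of 3. By chromosome the median difference of protein coding genes ran from -6.73 points on chromosome 22 to 7.18 points on chromosome 21, where 24 of 124 genes (19.4%) were higher in PC3 and 2 (1.61%) lower.

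The same lines were read again in libraries that share none of those above, 3 of PC3 and 3 of 22RV1 kept for 24 h with 10 µM canagliflozin. There 1052 genes (7.07%) were far apart and higher in PC3 and 836 (5.62%) lower. Of the 1048 genes higher in the control libraries 978 were far apart in the canagliflozin libraries too, which is 93.3% of the control list and 93.0% of the canagliflozin list. Of the 808 lower genes 744 were, 92.1% of the control list and 89.0% of the canagliflozin list, and 0 genes were called in opposite directions. PC3 CANA replicate B was the shallowest PC3 library (15.8 M reads), and without it 997 and 763 genes were called in both sets. These libraries share the tables and normalization of the controls, so they repeat the libraries and not the measurement. The differences of FOLH1 (-66.9 points) and CAV1 (73.4) stayed within 2 points of their control values, while that of IL6 was 83.4 points, against 66.9 in the controls.

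**Figure D5:**
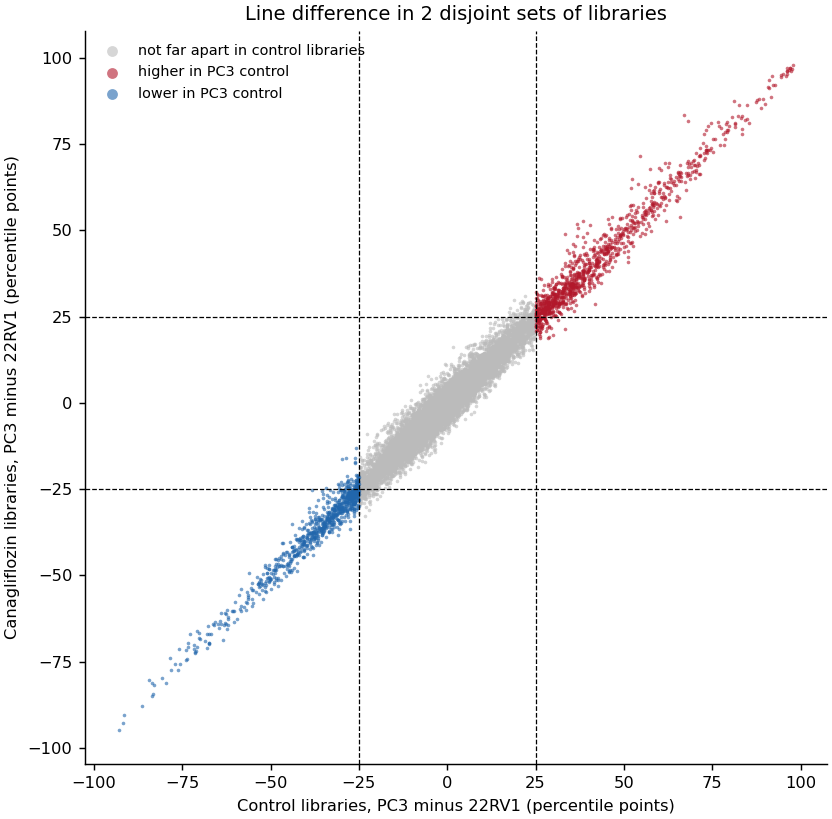
Difference in mean percentile, PC3 minus 22RV1, of each of the 14873 shared genes in the control libraries (horizontal) and in the canagliflozin libraries (vertical), in percentile points, with dashed lines at 25 points. The coloured genes, far apart in the control libraries, lie along the diagonal, and 978 of 1048 and 744 of 808 pass the same threshold in the other libraries.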

How the data were processed

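RNA of PC3 and 22RV1 cells was sequenced as single-end reads of 50 bases from a directional library kit. The authors trimmed reads (Trimmomatic, Cutadapt), aligned them to hg38 with HISAT2, counted reverse-strand exon reads with featureCounts and ran DESeq2, with versions not given in the sources used here. The deposited PC3 signal values are reads divided by the DESeq2 size factor, and in the 6 PC3 libraries all but 1 value were whole multiples (within 0.01) of the worth of 1 read. The deposited 22RV1 values are log2 values from DESeq2's rlog function, and control values in the CANA and combination tables differed by at most 5e-09. Columns of the authors' own comparisons (fold changes, test statistics and p-values), 51 columns of per-sample values with no sample name in 7 sheets of 1 gene and a filtered radiation table were not used. Deposited base means (signal, the authors' mean) were not used as results.

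Genes without a symbol (101 in PC3, 301 in 22RV1) and 2 PC3 rows of a duplicated symbol were left out. Percentiles were (average rank - 0.5) / genes × 100. The 31 lists and the comparison itself were chosen with earlier results of these data known, so no list is independent evidence, and no test was made between lines. Some genes are in more than 1 list, such as PLAU, AXL and LAMA3, so the lists are not separate counts. Named genes were the 4 markers, the 15 largest differences per direction among far-apart protein coding genes, the 4 largest per list, every far-apart member of 4 lists (androgen-responsive genes, lineage factors, cytokines, caveolae) and a fixed set with SLC5A2, ACTB, GAPDH and TBP. Some genes that this rule names, and 1 list, are not reported here. Other list members were named after their values were seen. The rules for stretches of genes (rlog 7, 128 and 25 reads, 3 genes) and the region of chromosome 6 were chosen after seeing the data. Gene positions are from GENCODE 44 (96.3% of shared genes matched) and promoters from RefSeq. Promoters of 8 of the 11 genes looked up were matched, and FOLH1 was not. Tools were Python 3.11, pandas and NumPy.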

Additional observations from a re-analysis of the deposited data

How the results depend on the processing

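No paired analysis was possible because the result comes from no test and a replicate letter ties no PC3 library to a 22RV1 library. Of 243 far-apart named genes 110 stayed far apart at 50 points, 186 with missing PC3 genes at the bottom of the ranking, 224 with log2 values, 224 with mapped ranks and 232 to 243 under the other settings that rank them all. The filter in both lines kept 182 of them, all still far apart. Where a gene had a value, 0 changed sign, which a gap of 25 points makes likely. The counts of 1048 genes higher and 808 lower in PC3 became 1957 and 1273 with a log2 difference of at least 2 on median-centred values, and 1498 and 1350 with ranks mapped to a common log2 distribution. They became 287 and 127 at 50 points. Leaving out 1 library at a time gave 1047 to 1051 higher and 804 to 810 lower. The other settings kept both counts within 1.5 times: filters on low values in either line (1103 and 889) or in both (1009 and 851), protein coding genes only (1065 and 872), 22RV1 controls from the table of the combination (1048 and 808), removal of the trend with transcript length and GC content (1098 and 720), and canagliflozin libraries (1052 and 836). Chosen after seeing the data, the canagliflozin libraries without PC3 CANA replicate B gave 1044 and 824. Entering the 22RV1 genes with no PC3 value at the bottom of the PC3 ranking, also chosen after seeing the data, gave 971 and 1037, and 363 of the 808 lower genes were still far apart.

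Among the lists, log2 values raised the higher genes to 17 of 21 (basal), 24 of 28 (cytokines), 18 of 28 (integrins) and 14 of 24 (S100). The bottom ranking left 3 of 34 androgen-responsive genes, 2 of 19 ephrin genes and 3 of 36 Wnt genes lower. It left 3 of 11 caveolae genes, 2 of 13 genes of the class I list and 2 of 41 tumour suppressors higher. These counts leave out list members with no PC3 value, which this setting ranks too, so they do not describe the whole lists. With log2 values 3 of 29 HOX genes were higher and 5 lower. The causes were not tested. Median differences by transcript length ran from -2.31 points up to 1000 bases to -0.589 above 4000 bases. The depth of 22RV1 is unknown, the rlog step narrows its spread, and PC3 values under about 10 reads rest on a few reads per library. Genes with no reads in any 1 PC3 library have no PC3 value here, so lower genes are undercounted.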
